A study of Hydra viridissima with 2 samples.

Results

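Close same-strand gene pairs of the green hydra Hydra viridissima are neighbouring gene models that lie on 1 strand with at most 500 bp between them. They were chosen by position alone: 2 consecutive models on a scaffold, on the same strand, each with 2 or more exons, and 1 to 500 bp from the end of the first to the start of the second. Scaffold 60 was left out. The exons of the models were taken as coding sequence, so a gap runs from one coding end to the next coding start. Untranslated ends of the transcripts may lie within it. The rule found 514 such pairs among 9102 neighbouring pairs of multi-exon models. The pairs hold 993 genes of the 34573 models in the table, and 35 of these genes belong to a pair on either side. The partner nearer the 5′ end on the shared strand is called upstream, the other downstream.

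Hydra is a freshwater polyp, and green hydra houses green algae in the epithelial cells that line its gut. Both libraries came from whole polyps of clone 2, kept at 24 °C and fed on brine shrimp. The aposymbiotic library was made from polyps without algae and the symbiotic library from green, alga-bearing polyps, each from about 200 large animals pooled into 1 RNA preparation. There was 1 library per condition, so no difference has a replicate check, and each describes these 2 pools.

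In most animals each gene is transcribed from its own promoter. An operon is an exception, in which several genes on 1 strand share a promoter and are copied as one long precursor RNA. In nematodes that precursor is cut into single mRNAs while a short leader RNA is spliced onto the 5′ end of the downstream ones. Trans-spliced leaders and polycistronic transcripts are also known from Hydra. Closely spaced models on 1 strand can likewise be 2 pieces of a single gene that the prediction software split, or copies of one gene side by side. The files hold neither leader sequences nor gene names, so these cases cannot be told apart here, and no gene is given a function. The tissue label could not be checked against marker genes for the same reason.

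Read pairs assigned to models numbered 5533508 in the aposymbiotic library and 6905650 in the symbiotic one. The share that fell on genes in close pairs was 2.09% in the former (2.08 to 2.11, 95% Clopper-Pearson interval) and 1.99% in the latter (1.98 to 2.00). Levels are given as CPM (read-pair counts scaled to a common library total, with library sizes adjusted by edgeR's TMM method) and, wherever 2 genes are compared, as CPM per kb of coding length. A gene or pair is called expressed when its mean CPM over both libraries, or that of both partners, was at least 1. Intervals and floors cover counting error only.

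Very short gaps were held almost entirely by same-strand pairs. Of the neighbouring multi-exon models 1 to 100 bp apart, 112 pairs were on the same strand, 10 were convergent (tail to tail) and 1 was divergent (head to head), so 91.1% were on 1 strand. At 201 to 300 bp the counts were 76, 33 and 21, or 58.5% on 1 strand. At 401 to 500 bp they were 151, 39 and 24, or 70.6%. The number of same-strand pairs thus had a first peak below 100 bp, fell to 65 between 101 and 200 bp, and climbed again to 150 between 501 and 600 bp. The median gap over the 514 pairs was 303 bp, and 54 pairs were at most 50 bp apart. Introns were rarely as short as the shortest gaps. Of the 79897 introns up to 500 bp long in multi-exon models, 79 were under 40 bp, whereas 43 of the 514 gaps (8.37%) were. The shortest intron that the gene prediction allowed is not known here, so this contrast does not tell gaps from introns. Of introns up to 500 bp long in all multi-exon models 20.8% were at most 100 bp, close to the 21.8% of gaps.

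**Figure D1:**
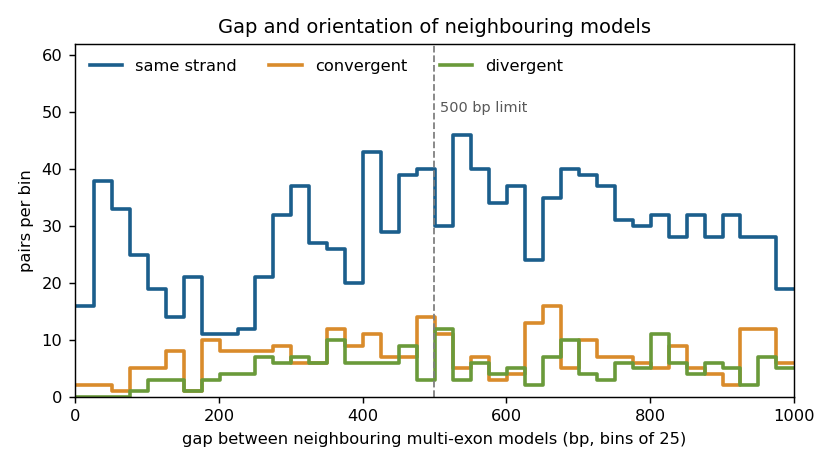
Number of neighbouring multi-exon pairs (y axis) against the gap between them in bins of 25 bp (x axis), for pairs on the same strand, convergent pairs and divergent pairs; the dashed line marks the 500 bp limit. Same-strand pairs show a peak below 100 bp, where 112 same-strand pairs stand against 10 convergent and 1 divergent, and a second, broader rise from about 300 bp.

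The pairs were spread over 24 scaffolds, with 270 on the minus and 244 on the plus strand. Scaffold 1 held the most, 71 pairs, or 41.0 per 1000 multi-exon models, and scaffold 12 held 17, or 22.4 per 1000. The genes were smaller than multi-exon models at large. Their median coding length was 885 nt against 1191 nt, their median exon number 4 against 5, and their median span in the genome 2006 against 3393 bp. Genes 1 to 100 bp from their partner were smaller still, with a median of 618 nt and 3 exons. Neither place in the pair was the larger: the upstream partner was longer in 252 pairs (49.0%). It had more exons in 193 pairs, fewer in 209 and the same number in 112. In 17 pairs the partners looked alike, with equal exon numbers and coding lengths within 10% of each other. Coding length was a multiple of 3 in 95.5% of the genes, against 96.4% of all multi-exon models. A few models were minute, 16 of them under 100 nt and the shortest 12 nt long, and their levels per kb rest on very few counts. The span of another model, introns included, overlapped 13 of the 993 genes. Reads were counted over exons without regard to strand, and reads that touched several models were left out. These 13 may thus have lost reads or hold reads from the other model, and how many was not tested.

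Nearest to the limit on the inside were a scaffold 2 pair at 500 bp (2268346 to 2269545 and 2270046 to 2278970) and a scaffold 1 pair at 499 bp (34970713 to 34971647 and 34962015 to 34970213). On the outside, 2 pairs had gaps of 503 bp, on scaffold 2 (20758496 to 20760605 and 20755818 to 20757992) and on scaffold 4 (8422773 to 8423391 and 8423895 to 8427825). The log2 ratios of symbiotic over aposymbiotic CPM were -0.42 and -0.034 in the first pair, -0.077 and -0.16 in the second, 0.084 and 0.18 in the third, and 0.44 and 0.096 in the fourth. The partners' levels lay within 3-fold of each other on both sides of the limit.

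Genes in close pairs were expressed at lower levels than multi-exon genes at large. A mean CPM of at least 1 was reached by 730 of the 993 genes (73.5%), against 80.9% of all multi-exon models. The median level was 8.15 CPM per kb, against 13.3. In 342 pairs both partners were expressed, in 66 pairs 1 partner was, and in 106 pairs neither was. No read was counted on either partner in 22 pairs, and 17 of these were at most 100 bp apart. That is 15.2% of the pairs up to 100 bp and 1.24% of the wider ones. The counting left out reads that align in several places, so a model at 0 counts may still be transcribed. Both partners were expressed in 59 of the 112 pairs at 1 to 100 bp and in 283 of the 402 pairs at 101 to 500 bp.

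The partners of a close pair had similar levels. Across the 342 expressed pairs, the level per kb of one partner followed that of the other, with Pearson's r 0.58 and Spearman's rho 0.52 on the log2 scale. Among the 59 pairs at 1 to 100 bp, r was 0.75 and rho 0.80, and among the 283 pairs at 101 to 500 bp, r was 0.52 and rho 0.43. For same-strand neighbours at 501 to 2000 bp r was 0.24 (1108 pairs), at 2001 to 10000 bp 0.14 (1971 pairs), and beyond 10000 bp 0.14 (569 pairs). Close neighbours on opposite strands had an r of 0.041 when convergent (123 pairs) and 0.18 when divergent (71 pairs). These correlations are descriptions across pairs that share both libraries, and a gene can stand in more than 1 pair. They depend on the spread of levels: at a mean CPM of at least 10 in both partners, r was 0.34 over 146 close pairs, against 0.15 at 501 to 2000 bp.

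The median distance between partners tells the same in fold terms. Partners of close pairs differed by a median of 0.78 in log2 CPM per kb (95% order-statistic interval over pairs 0.70 to 0.86). The median was 0.69 (0.56 to 0.85) at 1 to 100 bp and 0.81 (0.73 to 0.91) at 101 to 500 bp. It rose to 0.95 (0.86 to 1.02) at 501 to 2000 bp and 1.34 (1.25 to 1.41) at 2001 to 10000 bp, and it was 1.25 (0.95 to 1.57) for close convergent and 1.61 (1.19 to 2.18) for close divergent pairs. The interval of all close same-strand pairs overlapped neither of those of the close opposite-strand pairs, but it narrowly overlapped that of same-strand pairs at 501 to 2000 bp. At a mean CPM of at least 10 in both partners it did overlap that of the convergent pairs, with medians of 0.70 (0.58 to 0.86) for close same-strand, 0.85 (0.54 to 1.18) for close convergent and 1.71 (1.20 to 2.35) for close divergent pairs. Same-strand pairs at 501 to 2000 bp then had a median of 0.83 (0.74 to 0.90), which again overlapped that of close same-strand pairs. Within the latter the median was 0.67 at 1 to 100 bp (12 pairs), 0.88 at 101 to 300 bp (29 pairs) and 0.69 at 301 to 500 bp (105 pairs). Pairs are not replicates, and the differences between classes were not tested. Of the expressed close pairs, 210 (61.4%) had partners within 2-fold of each other, and 19 (5.56%) had partners over 8-fold apart. At 1 to 100 bp, 44 of 59 pairs (74.6%) were within 2-fold. Read pairs that touched both partners were counted for neither, per the counting options in the file headers. How many were lost in this way, which can matter most at the shortest gaps, was not tested.

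**Figure D2:**
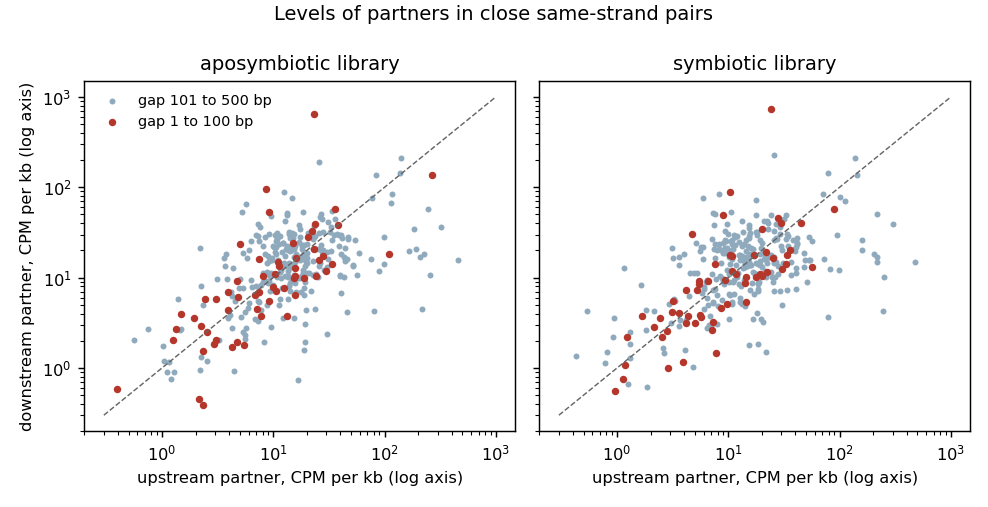
Level of the downstream partner (y axis, CPM per kb, log axis) against that of the upstream partner (x axis, CPM per kb, log axis) in the aposymbiotic and the symbiotic library, for the 342 expressed close pairs; red points are the 59 pairs at 1 to 100 bp, grey points the 283 at 101 to 500 bp, and the dashed line marks equal levels. The points lie along the line with a wide scatter, and a few pairs lie far from it in both libraries.

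Neither partner was regularly the higher one. The upstream partner had the higher level per kb in 182 of 342 pairs in the aposymbiotic library (53.2%, 95% Clopper-Pearson interval 47.8 to 58.6) and in 180 of 342 in the symbiotic library (52.6%, 47.2 to 58.0). The median log2 of downstream over upstream level was -0.074 (-0.22 to 0.073) and -0.095 (-0.21 to 0.058). At 1 to 100 bp the upstream partner was higher in 32 and 34 of 59 pairs, with medians of -0.084 (-0.60 to 0.36) and -0.19 (-0.63 to 0.18). These intervals all include equality, so a fall of level along the pair was not detectable, and the widths show what size of fall these pairs would have missed. Among same-strand pairs at 501 to 2000 bp the upstream partner was higher in 54.0% (51.0 to 56.9) and 55.6% (52.6 to 58.5), intervals that exclude equality. At 2001 to 10000 bp it was higher in 49.2% (47.0 to 51.4) and 49.0% (46.8 to 51.2).

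In most pairs the same partner was the higher one in both libraries. The order was the same in 304 of the 342 pairs (88.9%), and the log2 of downstream over upstream level had r 0.93 and rho 0.89 between the libraries. In 184 pairs (53.8%) the partners stood apart beyond counting error, in the same direction, in each library. Of these, 97 had the higher level upstream and 87 downstream. In 0 pairs did the partners stand apart in opposite directions, and in 92 pairs they stood apart in neither library. Most genes kept their level between the libraries: at a mean CPM of at least 10, 94.7% of all genes had a log2 ratio between -0.5 and 0.5. The order was not computed for other neighbouring pairs, so whether it is kept more often in close pairs was not tested.

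Some close pairs joined genes of very unequal level. On scaffold 2, a 13-exon upstream gene (20763851 to 20772732, minus strand) had 215 and 244 CPM per kb in the aposymbiotic and symbiotic libraries. Its 2-exon downstream partner (20763061 to 20763435), 415 bp away, had 4.48 and 4.26. The upstream gene was 48.1-fold higher in the first library (95% counting interval 22.1 to 131) and 57.3-fold higher in the second (27.7 to 143). The excess was thus of like size with and without algae.

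On scaffold 11, a 9-exon upstream gene (12740369 to 12743262, plus strand) had 461 and 474 CPM per kb, and its 5-exon partner 466 bp downstream (12743729 to 12748113) had 15.6 and 14.8. That is a 29.5-fold (24.0 to 36.6) and a 31.9-fold (26.4 to 39.0) excess of the upstream partner. Another scaffold 2 pair at 390 bp, a 13-exon gene (3691377 to 3703683, minus strand) and a 3-exon gene (3690381 to 3690986), had a 24.1-fold (15.0 to 41.5) and a 24.8-fold (16.0 to 40.7) excess upstream. These 3 pairs were taken for their upstream excess, and in each the weaker, downstream partner had fewer exons.

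The reverse order also occurred, including at a very short gap. On scaffold 5, 64 bp separate a 5-exon upstream gene (13778107 to 13780640, minus strand) from an 8-exon downstream gene (13771414 to 13778042). The upstream gene had 23.0 and 24.3 CPM per kb and the downstream gene 654 and 730, a 28.4-fold (24.0 to 34.0) and 30.1-fold (25.9 to 35.1) excess downstream. On scaffold 8, a 2-exon upstream model (1547810 to 1548867, minus strand) had 1 and 6 counts, and its 2-exon partner 294 bp downstream (1544874 to 1547515) had 350 and 408. On scaffold 1, a 2-exon upstream model (13557300 to 13558444, plus strand) had 1 and 4 counts beside 152 and 180 counts in a 15-exon gene 479 bp downstream (13558924 to 13568340). With so few counts upstream, the size of the excess in the last 2 pairs is poorly known: 198-fold (35.4 to 7862) and 105-fold (18.6 to 4173) in the aposymbiotic library, and 38.6-fold (17.6 to 106) and 31.1-fold (11.9 to 115) in the symbiotic library.

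In 17 pairs a partner with a mean CPM of at least 10 stood beside one under 1 CPM. The weak partner was upstream in 10 of them and downstream in 7, and 3 of the 17 had a gap of at most 100 bp. One silent partner is a 3-exon model on scaffold 6 (2219853 to 2222804, minus strand) with 0 counts in both libraries, which allows a level of up to 0.537 CPM without and 0.439 CPM with algae (3 counts in each library). Its 2-exon partner 215 bp downstream (2216491 to 2219637) had 157 and 187 counts. Another, a 14-exon downstream model of 1399 nt on scaffold 2 (3383335 to 3391745, plus strand), had 0 counts in both, 239 bp from a 4-exon gene (3377799 to 3383095) with 107 and 109. In 3 of the 17 pairs the weak model was under 30 nt long in coding sequence (27, 12 and 15 nt), where few reads could fall. Such pairs make up 3.31% of close pairs, against 6.69% of same-strand neighbours at 501 to 2000 bp, 4.32% of close convergent and 4.71% of close divergent pairs. Fewer close same-strand pairs held a partner of at least 10 CPM at all, 271 of 514. Of those with one, 6.27% had a silent partner, against 7.69%, 5.04% and 5.71% in the other classes. The examples were picked after their values were seen.

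The most abundant pairs were ranked by the level of their lower partner, so that both partners are high by choice. The first was a scaffold 3 pair at 447 bp on the plus strand. Its 13-exon gene (19340507 to 19350661) had 113 and 111 CPM per kb, and its 17-exon partner (19351109 to 19357701) had 67.6 and 70.6. A scaffold 8 pair at 459 bp joined a 7-exon gene (15558667 to 15566636, plus strand) at 246 and 215 CPM per kb to a 23-exon gene (15567096 to 15581826) at 58.1 and 50.1. Each gene had a similar level in both libraries.

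On scaffold 4, 274 bp separate 2 look-alike genes of 4 exons and 633 nt each (1888268 to 1889378 and 1886875 to 1887993, minus strand). The upstream gene had 140 and 137 CPM per kb and the downstream gene 210 and 210, a 1.50-fold (1.34 to 1.68) and 1.53-fold (1.38 to 1.70) difference. The scaffold 1 pair at 496 bp (28080934 to 28086221 and 28078857 to 28080437, minus strand) belongs to the run of 4 genes described below. The remaining abundant pair, on scaffold 5 at 76 bp, is described below with the library ratios.

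The levels of these genes differed little between the polyps with and without algae. Over the 730 expressed genes in close pairs, the log2 of symbiotic over aposymbiotic CPM had a median of -0.028 (-0.056 to -0.00081), against 0.013 (0.0073 to 0.019) over all 16162 genes tested. The median of the genes in close pairs was lower by 0.041, and by 0.040 to 0.041 under the other scalings, which move both medians alike. With total counts alone the median of all genes turned negative, at -0.014. At a mean CPM of at least 10, 393 of 407 genes (96.6%) had a log2 ratio between -0.5 and 0.5, against 94.7% of all 9483 such genes.

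By a rule of at least 2-fold with a counting interval that excludes equality, 3 of the 730 genes (0.411%) were higher in the symbiotic library and 9 (1.23%) lower. Over all genes tested the same rule called 0.947% higher and 1.42% lower, and over all 12023 expressed multi-exon models it called 0.749% and 0.973%. With only 3 and 9 genes called, the shares in close pairs are not read as different from these backgrounds. Of the 135 expressed genes 1 to 100 bp from a partner, 0 were higher and 5 (3.70%) lower, and 4 of these 5 make up 2 pairs described below. The remaining one, an 8-exon downstream gene on scaffold 5 (15795413 to 15798968, plus strand), had 24 and 11 counts, at -1.37 (-2.60 to -0.33). Its 3-exon partner, 28 bp upstream, had 5 and 13 counts and a ratio in the other direction, at 1.02 (-0.49 to 2.93). At a mean CPM of at least 10, 0 of 407 were higher, where the background was 0.137%, and 3 (0.737%) were lower, where it was 0.538%. These 3 are the partners on scaffold 5 and the upstream partner of a scaffold 6 pair. The 12 called genes included 9 with a mean under 10 CPM.

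In 2 of the 342 expressed pairs (0.585%) both partners were called lower with algae, and in 0 both were called higher. Among the 6662 other expressed neighbouring pairs of multi-exon models 4 (0.06%) had both partners past the rule in one direction. With only 2 and 4 pairs these shares are not read as different, and a prior count of 5 left 1 close pair. The 2 close pairs called by the main rule lay within 100 bp. On scaffold 5, the 14-exon upstream gene cHydvir-v1B3C1_g25833 (15460735 to 15477961, minus strand) had 264 CPM per kb without algae and 89.7 with them. Its 6-exon downstream partner cHydvir-v1B3C1_g25832 (15458483 to 15460658), 76 bp away, had 137 and 57.8. The log2 ratios were -1.56 (95% counting interval -1.65 to -1.47) and -1.24 (-1.41 to -1.07). The intervals did not overlap, so the upstream gene differed more than its partner beyond counting error. Its excess over the downstream partner was 1.93-fold (1.80 to 2.09) without and 1.55-fold (1.39 to 1.73) with algae.

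On scaffold 6, 56 bp separate 2 genes of 2 exons (1166691 to 1168299 and 1168356 to 1169727, plus strand). The upstream gene had 84 aposymbiotic and 45 symbiotic counts, and the downstream gene 54 and 32. The log2 ratios were -1.18 (-1.75 to -0.65) and -1.03 (-1.73 to -0.39). The third lower pair by the same ranking, on scaffold 4 at 410 bp (4176139 to 4183590 and 4172060 to 4175728, minus strand), did not reach 2-fold, at -0.46 (-0.71 to -0.22) and -0.52 (-0.97 to -0.079). In the higher direction no pair had both intervals above 0. The first by rank, on scaffold 1 at 321 bp (5010327 to 5019648 and 5019970 to 5023504, plus strand), stood at 0.23 (-0.045 to 0.51) and 0.40 (0.0043 to 0.80). The next were scaffold 6 pairs at 292 bp (18566187 to 18591192 and 18561308 to 18565894), at 0.12 and 0.51, and at 2 bp, at 0.18 and 0.68.

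For the other called genes, the partner did not share the call. A 4-exon upstream gene on scaffold 16 (1095057 to 1098083, plus strand) went from 23 counts without algae to 2 with them, at -3.49 on the log2 scale (-6.95 to -1.80). Its partner 346 bp downstream (1098430 to 1098983) had 1 and 0. The 3 higher genes were all downstream partners, on scaffolds 5 (4047949 to 4049404), 7 (11886450 to 11887057) and 9 (3970752 to 3971156). They had 6 and 23, 5 and 19, and 10 and 27 counts, against 17 and 17, 89 and 87, and 15 and 15 in their upstream partners. These genes were few, at low counts and chosen after their values were seen.

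**Figure D3:**
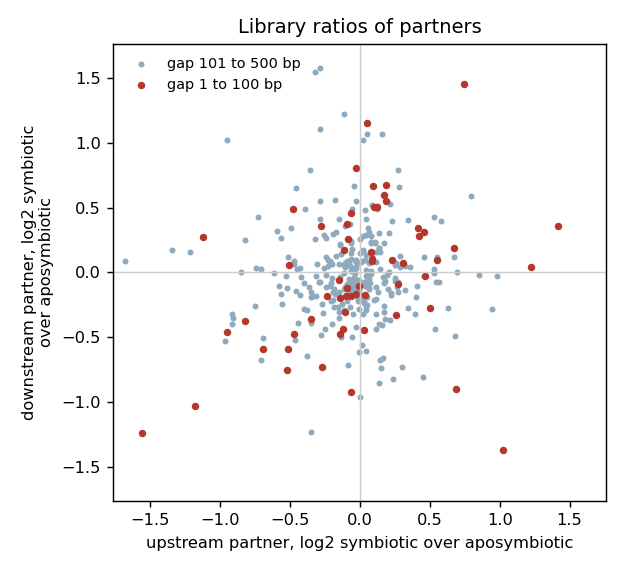
Log2 ratio of symbiotic over aposymbiotic CPM of the downstream partner (y axis) against that of the upstream partner (x axis) for the 342 expressed close pairs; red points are pairs at 1 to 100 bp, grey points pairs at 101 to 500 bp. The grey points form a cloud without slope (r -0.027), and the red point at the lower left, at -1.56 and -1.24, is the scaffold 5 pair at 76 bp.

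The partners' library ratios were less closely related than their levels. Across the 342 expressed pairs the partners' log2 ratios had r 0.085 and rho 0.099. At 101 to 500 bp r was -0.027 and rho 0.00043, against 0.12 and 0.068 for same-strand neighbours at 501 to 2000 bp. At 1 to 100 bp r was 0.33 and rho 0.40 over 59 pairs. Without the scaffold 5 pair these were 0.25 and 0.38. Both partners lay on the same side of equality in 42 of the 59 pairs at 1 to 100 bp (71.2%) and in 140 of the 283 at 101 to 500 bp (49.5%). With at least 10 CPM in both partners r was 0.83 over 12 pairs, but 0.36 over the 11 that remain without the scaffold 5 pair, so that value rests on 1 pair. With every pair of at least 1 count in each partner, r at 1 to 100 bp was 0.026 over 87 pairs. The correlation in ratio is weak, and counting error makes up much of the ratio of a gene with few reads: the median CPM of the lower partner was 4.68 at 1 to 100 bp and 9.49 at 101 to 500 bp.

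Relative to counting error, the partners' ratios differed little. At 1 to 100 bp the difference in log2 ratio had a robust standard deviation 0.96 times as wide as counting error alone gives, and at 101 to 500 bp it was 1.24 times as wide. It was 1.26 times at 501 to 2000 bp, 1.42 times at 2001 to 10000 bp and 1.51 times beyond. Close convergent pairs stood at 1.40 and close divergent pairs at 1.77. At 501 to 2000 bp convergent pairs stood at 1.45 and divergent pairs at 1.14, the latter below close same-strand pairs at 101 to 500 bp. This multiple can grow with depth, and the pairs at 1 to 100 bp had the fewest counts. At a mean CPM of at least 10 it was 0.82 at 1 to 100 bp (12 pairs), 1.24 at 101 to 500 bp, 1.45 at 501 to 2000 bp and 1.60 at 2001 to 10000 bp. Within 101 to 500 bp it did not rise with the gap, at 1.43 for 101 to 300 bp (29 pairs) and 1.20 for 301 to 500 bp (105 pairs). By the same filter, convergent and divergent pairs at 501 to 2000 bp stood at 1.61 and 1.21. The median absolute difference in log2 ratio was 0.29 (0.24 to 0.32) over all close pairs, 0.37 at 1 to 100 bp and 0.23 at 501 to 2000 bp.

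**Figure D4:**
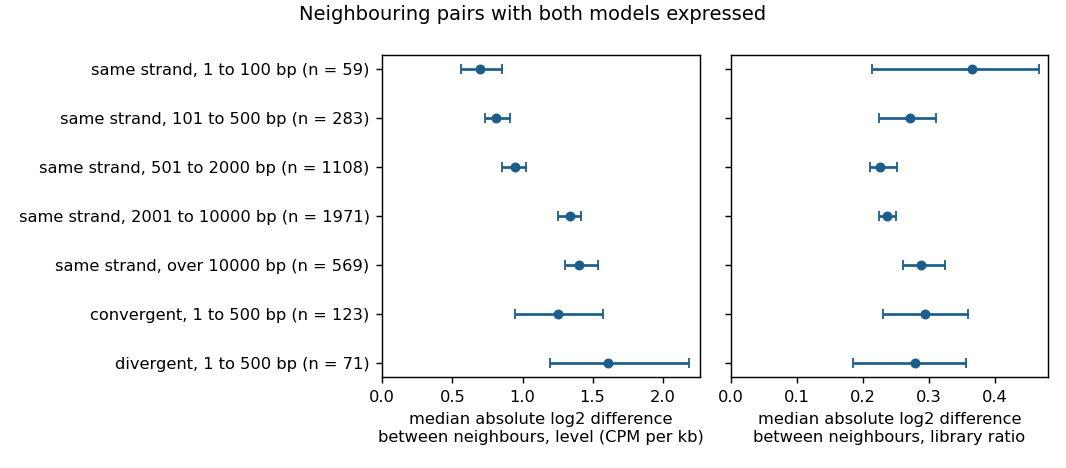
Median absolute log2 difference between neighbouring expressed models in level per kb (left) and in the library ratio (right), by orientation and gap (y axis, with the number of pairs); points are medians and bars 95% order-statistic intervals over pairs, with both x axes starting at 0. The level difference is smallest in same-strand pairs at 1 to 100 bp (0.69) and highest in close divergent pairs (1.61), whereas the ratio difference has overlapping intervals in most classes.

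In 4 of the 342 pairs (1.17%) the partners' ratios were at least 2-fold apart with counting intervals that did not overlap, against 2.03% of other expressed neighbours. The latter differed by class: 7 of 1108 same-strand pairs at 501 to 2000 bp, 46 of 1971 at 2001 to 10000 bp, and 2 of 123 convergent and 0 of 71 divergent close pairs. Fewer counts leave fewer intervals apart, and the median CPM of the lower partner was 7.95 in close pairs against 14.4 at 501 to 2000 bp. The shares are thus not read as different. A scaffold 3 pair at 495 bp joined a 3-exon gene with 56 and 94 counts (4797534 to 4800383, plus strand) to an 11-exon gene with 66 and 46 (4800879 to 4805601), at log2 ratios of 0.45 (-0.037 to 0.96) and -0.81 (-1.39 to -0.25). A scaffold 3 pair at 117 bp joined a 3-exon gene with 35 and 13 counts (6252554 to 6253133, plus strand) to a 9-exon gene with 30 and 39 (6253251 to 6255242), at -1.68 (-2.76 to -0.77) and 0.085 (-0.64 to 0.82). The other 2, on scaffold 1 at 401 bp and scaffold 7 at 344 bp, had partners at 0.24 and -0.83 and at -0.32 and 1.55. None of the 4 lay within 100 bp.

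By distance between the intervals, the widest separation was in a scaffold 1 pair at 488 bp. Its 33-exon upstream gene (3135823 to 3161731, minus strand) stood at a log2 ratio of 0.14 (0.034 to 0.24) on 1350 and 1817 counts, and its 2-exon partner (3133528 to 3135334) at -0.85 (-1.51 to -0.24) on 55 and 37. A scaffold 3 pair at 484 bp joined a 26-exon gene (4260951 to 4273956, minus strand) at -0.040 to a 3-exon gene (4258102 to 4260466) at 0.67 (0.27 to 1.08). In both the many-exon gene was near equality and its small downstream neighbour was not.

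The tightest expressed pairs had gaps of 1 to 7 bp between the models, whose untranslated ends are not known. On scaffold 17, 1 bp separates a 22-exon gene (2739590 to 2747145, minus strand) with 36 and 61 counts from a 7-exon gene (2737667 to 2739588) with 49 and 59. On scaffold 6, 2 bp separate a 22-exon gene (5429767 to 5443536, minus strand) at 15.7 and 17.8 CPM per kb from an 8-exon gene (5424847 to 5429764) at 6.34 and 10.2. A 3 bp gap on the same scaffold joins a 6-exon gene (7353411 to 7359208, plus strand) at 11.1 and 10.4 CPM per kb to a 13-exon gene (7359212 to 7368742) at 14.8 and 17.7. All 3 pairs join genes of 6 or more exons, and their partners lay between 1.34-fold and 2.47-fold apart.

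Gaps of 7 bp occurred on scaffold 1, between genes of 5 and 9 exons (20244718 to 20249601 and 20239001 to 20244710, minus strand), and on scaffold 13, between genes of 2 and 7 exons (5772615 to 5774656 and 5769417 to 5772607, minus strand). The first pair had 12.5 and 8.63 CPM per kb upstream and 7.74 and 4.56 downstream, with log2 ratios of -0.52 (-1.14 to 0.072) and -0.76 (-1.28 to -0.25). The second had 9.09 and 9.03 upstream and 53.5 and 49.6 downstream. Of these 5 pairs, 4 had partners within 3-fold of each other in both libraries and the scaffold 13 pair did not.

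Of the 112 pairs at 1 to 100 bp, 15 joined 2 genes of 5 or more exons each and 27 joined 2 genes of 2 exons. The 12 pairs with both partners at a mean CPM of at least 10 lay on scaffolds 1, 2, 3, 5, 6 and 9 with gaps of 3 to 80 bp. Apart from the 2 scaffold 5 pairs at 64 and 76 bp described above, their levels ran from 9.86 to 58.1 CPM per kb in the aposymbiotic library. On scaffold 5, a 6-exon and a 22-exon gene 72 bp apart (12172864 to 12175969 and 12176042 to 12194002, plus strand) stood at 38.0 and 37.8 CPM per kb. On scaffold 9, a 9-exon and a 10-exon gene 34 bp apart (5282520 to 5288233 and 5275408 to 5282485, minus strand) stood at 35.6 and 58.1, with log2 ratios of -0.35 and -0.36. On scaffold 3, 2 genes of 10 exons 31 bp apart (13695747 to 13702424 and 13692767 to 13695715, minus strand) stood at 23.3 and 20.6, with log2 ratios of -0.096 and -0.12. These examples were chosen after their values were seen.

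Close pairs also chained into runs. The 514 pairs formed 479 separate runs, 448 of them a single pair, 27 of 3 genes and 4 of 4 genes. Of the 31 runs of 3 or more genes, 16 had every gene expressed, 8 had none and 7 had some. On scaffold 1, 4 genes of 3 to 5 exons follow each other on the minus strand (28078857 to 28092158) with gaps of 387, 410 and 496 bp. From 5′ to 3′ they had 117, 83.6, 138 and 145 CPM per kb in the aposymbiotic and 101, 79.0, 145 and 137 in the symbiotic library. All 4 were thus within 2-fold of each other in each library, and their log2 ratios ran from -0.21 to 0.071.

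The other runs of 4 were weaker. On scaffold 6 (8074489 to 8080203, minus strand), the genes had 9.18, 5.56, 2.34 and 4.97 CPM per kb in the aposymbiotic library and 5.62, 3.63, 2.94 and 5.15 in the symbiotic library. The runs on scaffold 8 (16872897 to 16880969, plus strand) and scaffold 10 (14844611 to 14850576, minus strand) had at most 18 and 7 counts per gene in a library. Among the runs of 3, one on scaffold 1 (33869659 to 33904562, minus strand) held genes of 24, 21 and 14 exons. They had 11.1, 15.7 and 22.5 CPM per kb in the aposymbiotic and 10.9, 16.1 and 21.4 in the symbiotic library. This run was chosen after its values were seen, and its log2 ratios had the narrowest range among fully expressed runs of 3, -0.071 to 0.036. Others ranged more widely, as from -0.74 to 0.15 on scaffold 3 (15444516 to 15478683) and from -0.49 to 0.68 on scaffold 6 (5421432 to 5443536).

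**Figure D5:**
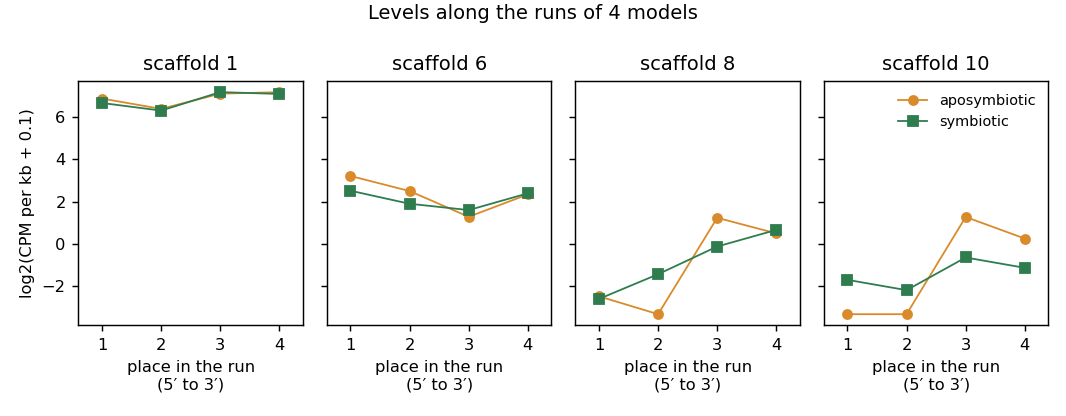
Level of each gene, as log2 of CPM per kb plus 0.1 (y axis), along the 4 runs of 4 models from 5′ to 3′ (x axis) in the aposymbiotic (circles) and symbiotic (squares) libraries. The scaffold 1 run is high and level across its genes, the scaffold 6 run is intermediate, and the scaffold 8 and 10 runs rest on few counts.

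Part of the close pairs recurred among the gene models with the same structure. Whether such pairs are separate loci was not tested, and each is counted as its own pair. In 58 pairs both exon numbers equalled, and both coding lengths lay within 2% of, those of another close pair, and in 43 of these, in 19 sets, the lengths were identical. A set of models recurred in a fixed order with fixed gaps. A 3-exon model of 2250 nt was followed at 320 or 321 bp by a 7-exon model of 1401 nt in 5 pairs on 5 scaffolds. In 3 pairs on 3 scaffolds it was followed at 320 or 321 bp by a 2-exon model of 540 nt, and a 540 nt model was followed at 403 bp by a 5-exon model of 819 nt in 3 pairs. With 4 related pairs these made 15 pairs on 8 scaffolds, and no partner had more than 23 counts in a library. Models were matched by length and exon number only, not by sequence.

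Other recurring pairs were expressed. In 20 of the 58 pairs both partners had a mean CPM of at least 1, and 9 matches joined 2 such pairs. Over the 18 partners in these matches, the matched models, here called copies, differed by a median of 0.40 in log2 CPM per kb (0.013 to 2.74), and 15 were within 2-fold. The order of the partners was the same in both copies in 8 of the 9. A 7-exon and a 12-exon gene 495 bp apart occurred on scaffold 14 (944687 to 960181 and 938396 to 944191) with 85 and 91, and 59 and 65 counts. They occurred again on scaffold 15 (1062196 to 1079002 and 1057818 to 1061700) with 72 and 91, and 49 and 80. A second match joined the same scaffolds, at 273 and 274 bp. A 3-exon gene with 7 and 12 counts stood beside an 11-exon gene with 118 and 142 on scaffold 14 (1575939 to 1577834 and 1567874 to 1575665). The copies on scaffold 15 (1770220 to 1772107 and 1762856 to 1769945) had 12 and 14, and 101 and 113. In both copies the downstream gene was the higher one.

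Scaffolds 16 and 18 also shared 2 matches. A 2-exon and a 4-exon gene had 198 and 203, and 32 and 48 counts on scaffold 16 (7497143 to 7500338 and 7500773 to 7505053). On scaffold 18 (1677215 to 1680860 and 1671556 to 1676798) they had 156 and 208, and 26 and 45. A 7-exon gene with 22 and 44 counts and an 8-exon gene with 134 and 164 on scaffold 16 (7511942 to 7520377 and 7509495 to 7511543) had copies with 16 and 29, and 87 and 116 on scaffold 18 (1656082 to 1664708 and 1665110 to 1667176). Of the 3 partners that differed by more than 2-fold between copies, 2 belonged to a match of 2-exon and 4-exon models on scaffolds 2 (3375953 to 3377550 and 3377799 to 3383095) and 6 (8076464 to 8077551 and 8074489 to 8076138). They had 102 and 119, and 107 and 109 counts on the former and 13 and 20, and 26 and 33 on the latter. The gaps of this match differed too, at 248 and 325 bp, and whether its pairs are copies of each other was not tested. The remaining partner of the 3 was a 4-exon downstream gene of scaffold 5, with 5 and 15 counts in one copy (8465832 to 8468435) and 21 and 27 in the other (11014675 to 11017274), a difference of 1.32 in log2 CPM per kb. The 14-exon upstream genes of these copies had 224 and 253, and 261 and 335 counts. Where copies are near-identical in sequence, reads that align to both were not counted, so the levels of these pairs are uncertain. Without the 58 recurring pairs the median level difference over close pairs and the correlation in level stayed within their intervals.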

How the data were processed

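Per the labels' protocols, ribosomal RNA was removed enzymatically from total RNA of whole polyps, which was then sequenced as read pairs (the labels' molecule field says polyA RNA). Per the submitters' processing notes, fastp 1.1.0, STAR 2.7.11b and featureCounts of Subread 2.1.1 were used. The deposited table holds counts: the authors counted read pairs over exons per gene model of a BRAKER3 annotation, without strand, without multiply aligned reads and without reads overlapping several models, per the file headers. The other deposited column used, a value in bases, is the summed exon length. Coordinates are those of the table, for a genome build not given in the sources used here.

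CPM used TMM factors of 1.01 (aposymbiotic) and 0.991 (symbiotic) from edgeR 4.0.16 under R 4.3.3. Log2 ratios were taken after adding 0.5 counts in proportion to library size, and their 95% counting intervals are Clopper-Pearson intervals conditional on the summed counts. No test was run and no p-value is given, since each condition has 1 library. Correlations and medians used pairs with both partners at a mean CPM of at least 1. Named pairs are the 5 highest by the weaker partner, the first 3 in each direction by ratio (mean CPM of at least 5), the 4 with ratios farthest apart, the 3 with the largest level excess on either side, the 5 smallest gaps, the 4-gene runs and the pairs at the limit; others are said to be chosen after their values were seen. Members, lists and rules were chosen with earlier results of these data known. The calculation was tested on simulated data. Intervals and correlations came from scipy 1.17.1, tables from pandas 2.3.3 with numpy 2.4.6, and plots from matplotlib 3.10.9, under Python 3.11.15.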

Additional observations from a re-analysis of the deposited data

How the results depend on the processing

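Of 199 recomputed values over pairs, 158 stayed within the interval of the reported value (counts: within 1.5 times) and 41 moved. No sign was called for the median of downstream over upstream level, so a change of sign there could not be counted. The 224 recomputed ratios of 56 named genes all stayed within their counting intervals under 3 other scalings and a prior count of 5. The cause was not tested for those that moved, except that a shorter gap limit, a filter or an exon minimum leaves fewer pairs. With a gap limit of 250 bp there were 200 pairs, 94 of them expressed; r was 0.69 for level and 0.22 for ratio, the median differences 0.70 and 0.37, and 0 genes were 2-fold higher, 1 pair had ratios apart and 9 had a silent partner. With 1000 bp there were 1164 pairs, 943 expressed, r for level was 0.44, 6 genes were higher and 39 pairs had a silent partner. With a mean CPM of at least 10 in both partners, 146 pairs had r 0.34 for level and 0.29 for ratio and median differences of 0.70 and 0.19; 0 genes were higher, 3 lower, 1 pair had both lower and 0 had ratios apart. With at least 1 count in each partner, r for level was 0.73 and the median differences 0.88 and 0.37. With 3 or more exons there were 258 pairs, 0 genes higher, 5 lower, 1 pair with both lower and 4 with a silent partner. Without division by length, r for level was 0.41 and the median difference 1.11. A prior count of 5, or leaving out the scaffold 5 pair, left 1 pair with both lower. At 1 to 100 bp, r for level was 0.42 at 10 CPM and 0.56 without division by length, where the median difference was 1.27. There r for ratio was 0.83 at 10 CPM and 0.026 with at least 1 count, where rho was 0.14. The alternatives at 1 to 100 bp, and those without the scaffold 5 pair, the recurring pairs or partners under 100 nt, were chosen after seeing the data. Below about 10 CPM, counting error limits what a single ratio shows.

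No paired analysis was possible because each condition has 1 library.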
